A study of Homo sapiens with 105 samples.

Results

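Prostaglandin synthesis and receptor genes were followed in Vk2/E6E7 cells, a line of vaginal keratinocytes immortalized with papillomavirus oncogenes. The members were PLA2G4A, PTGS1, PTGS2, PTGES, PTGES2, HPGD, PTGER2 and PTGER4. They were found by gene symbol among the annotated probesets of the Affymetrix U133 Plus 2.0 array, and 8 genes with 17 probesets were found of 19775 genes and 54613 probesets. Cells were treated for 6 h and RNA was measured on 105 arrays. Growth medium (GM) alone was the control (54 arrays). The pro-inflammatory compounds (PICs) were the cytokine TNF-a (40 ng/ml, 6 arrays), the TLR2 lipopeptides Pam3CSK4 (10 μg/ml, 6 arrays) and MALP2 (200 ng/ml, 6 arrays), the TLR7 ligand imiquimod (IMQ, 6 arrays) and the detergent nonoxynol 9 (N9, 12.5 μg/ml, 9 arrays). The labels give IMQ as 30 mg/ml, whereas the methods give 30 in units of μg/ml. The non-inflammatory compounds were the cellulose ethers HEC and CMC (1 mg/ml and 9 arrays each). All groups share 1 cell line. Each array's title calls it a biological replicate, but no source used here says which arrays came from separate cultures, so p-values measure the spread between arrays, which may be partly technical.

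GM replicate 52 and TNF-a replicate 6 were left out of all values. The highest correlation of GM replicate 52 with another array was 0.0493, whereas the lowest of any other pair of arrays was 0.836. TNF-a replicate 6 equals the mean of TNF-a replicates 1 to 3 within 7.67e-09 log2 units. This left 103 arrays, with 53 in GM and 5 in TNF-a. Arrays with 3 consecutive replicate numbers in a group deviated together (consensus correlation 0.438), and such a set is called a run here, a name that no label gives. There are 35 runs, of which 18 are GM. Keratinocyte markers were high in GM, with KRT5 at 14.46, KRT14 at 14.71, CDH1 at 13.48 and DSG3 at 12.6 on the log2 scale, and their group means stayed between 12.3 and 14.81. Array medians of the deposited values ran from 6.21 to 7.08. Of the 4 leukocyte markers, PTPRC was at 4.31 and CD3E at 6.05, below these medians, whereas CD14 was at 7.04 and ITGAM at 7.16, at or above them. Of the 6 markers of fibroblasts and endothelium, CDH5 (3.39), VWF (4.46) and PDGFRA (5.81) were below the medians, COL1A2 was at 6.21, and PECAM1 (8.19) and COL1A1 (10.83) were above them. Of 14 measured markers 1 passed the test in any treatment (CD14 with IMQ, log2 difference -1.59, adjusted p = 0.0252, limma), and the part of other cell types in the results was not tested.

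Prostaglandin E2 is made in steps. Cytosolic phospholipase A2 (PLA2G4A) releases arachidonic acid from membranes, a cyclooxygenase (PTGS1 or PTGS2) converts it to prostaglandin H2, and a terminal synthase (PTGES or PTGES2) forms prostaglandin E2. HPGD oxidizes and inactivates the product. The receptors EP2 (PTGER2) and EP4 (PTGER4) both couple to cyclic AMP production. PTGS1 is known as the constitutive cyclooxygenase, whereas PTGS2 is the inducible form that inflammatory signals raise in many epithelia.

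The promoters of the members called with N9 are shown, of which 2, PTGS2 and PTGER4, were called higher and the other, PTGER2, lower. Each is the 250 bases before the start of the gene, 5′ to 3′ on the gene's strand, from RefSeq (GRCh38.p14). PTGS2 lies at chr1:186680424-186680673 on the minus strand, PTGER4 at chr5:40679665-40679914 on the plus strand and PTGER2 at chr14:52314062-52314311 on the plus strand. Capitals mark matches on either strand to GGG and CC with any 5 bases between them (an NFkB-like string), TTNCGNAA (C/EBP-like), TGACG (part of a cyclic AMP response element), TGANTCA (AP-1-like) or TATAAA, and matches may overlap.
PTGS2: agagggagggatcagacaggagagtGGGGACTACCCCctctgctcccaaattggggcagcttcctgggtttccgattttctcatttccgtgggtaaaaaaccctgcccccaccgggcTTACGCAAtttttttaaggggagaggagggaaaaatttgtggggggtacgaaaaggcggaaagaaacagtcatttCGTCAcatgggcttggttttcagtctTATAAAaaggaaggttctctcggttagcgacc
PTGER4: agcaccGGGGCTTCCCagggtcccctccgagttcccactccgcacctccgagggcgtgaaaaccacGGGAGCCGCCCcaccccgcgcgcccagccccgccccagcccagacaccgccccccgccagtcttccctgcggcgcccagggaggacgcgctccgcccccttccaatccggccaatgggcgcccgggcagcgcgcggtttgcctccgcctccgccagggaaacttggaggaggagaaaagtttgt
PTGER2: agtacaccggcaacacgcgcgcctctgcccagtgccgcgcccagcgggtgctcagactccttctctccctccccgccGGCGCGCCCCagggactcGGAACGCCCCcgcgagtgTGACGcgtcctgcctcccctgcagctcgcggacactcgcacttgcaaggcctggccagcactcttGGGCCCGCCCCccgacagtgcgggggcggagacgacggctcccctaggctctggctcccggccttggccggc

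In the PTGS2 window, the NFkB-like string matched in 3 overlapping places between bases 225 and 214 before the start. TTNCGNAA matched at bases 133 to 126, TGACG (as CGTCA on this strand) at bases 58 to 54 and TATAAA at bases 32 to 27. PTGER4 held the NFkB-like string in 3 places and none of the other strings. PTGER2 held it in 4 places and TGACG once, at bases 137 to 133. Of 35116 promoter windows of this length in the table, 54.4% hold the NFkB-like string, 21.2% TGACG, 10.7% TATAAA, 6.57% TGANTCA and 2.18% TTNCGNAA. The matches are a description of letters and not of binding.

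Each member was described by its brightest probeset that names the gene alone, and levels are given as quantile normalized log2 values, so that a step of 1 is a doubling. In bulk RNA, fewer cells with a transcript and less of it per cell cannot be told apart. PTGS2 was called higher (limma, Benjamini-Hochberg adjusted p under 0.05 over all probesets) with TNF-a, MALP2, IMQ and N9. PTGER4 was called higher and PTGER2 lower with N9, and PTGES2 lower with IMQ. PLA2G4A, PTGS1, PTGES and HPGD were called with no treatment, and no member was called with Pam3CSK4, HEC or CMC. The differences of each member from GM show this pattern.

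**Figure D1:**
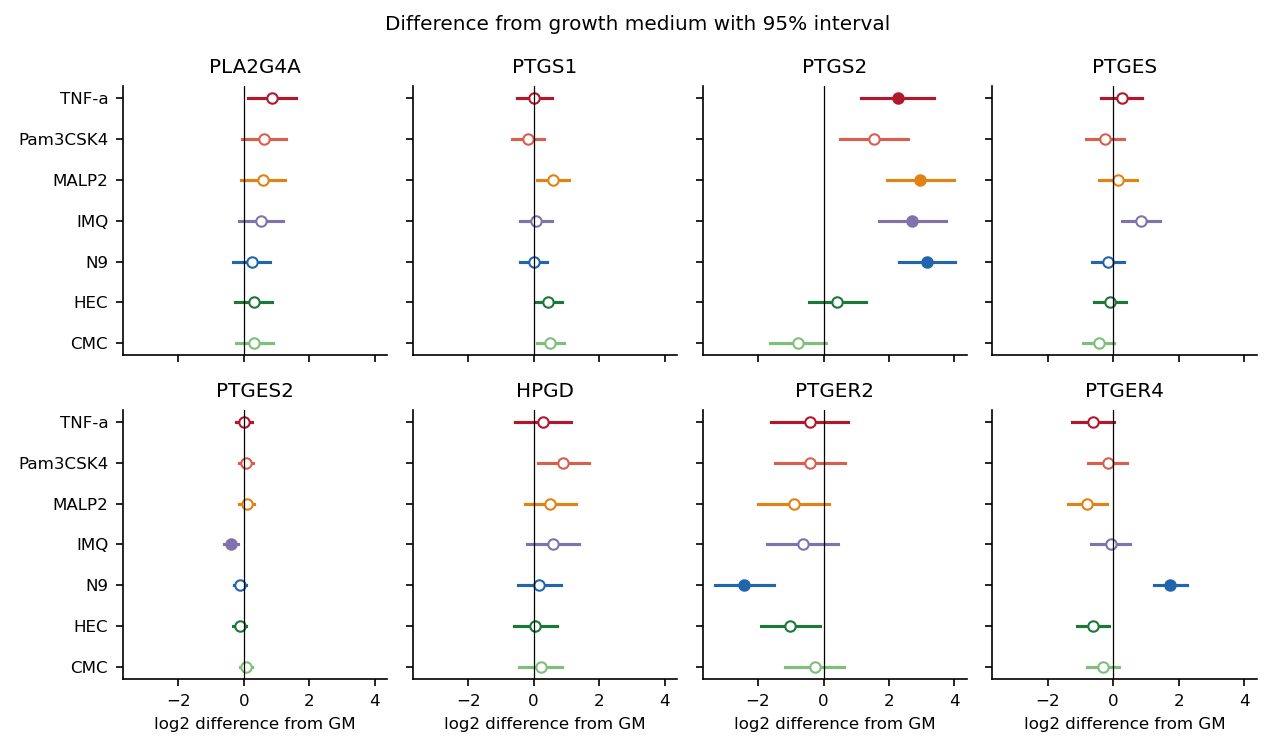
Log2 difference from GM (x axis) of the 8 members for 7 treatments (rows), from the limma model over 103 arrays. Circles are the estimates, bars are 95% intervals and filled circles are calls at adjusted p under 0.05. The filled circles are PTGS2 in 4 treatments, PTGER2 and PTGER4 with N9, and PTGES2 with IMQ.

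The member counts stand beside those of all probesets. With TNF-a 1 of 8 members was called higher, where 0.526% of probesets were called higher and 0.196% lower. With Pam3CSK4 0 of 8 was called, and the shares were 1.31% higher and 0.859% lower. At an unadjusted p under 0.05 in limma, 2 would pass with Pam3CSK4 (PTGS2 and HPGD). With MALP2 1 of 8 was higher, against 3.28% of probesets higher and 3.66% lower. With IMQ 1 of 8 was higher and 1 lower, against 4.68% and 6.19%. With N9 2 of 8 were higher and 1 lower, against 7.35% and 10.1%. With HEC 0 of 8 was called, against 0.328% higher and 0.465% lower, and 3 had an unadjusted p under 0.05 (PTGS1 higher, PTGER2 and PTGER4 lower). With CMC 0 of 8 was called, against 0% higher and 0.00183% lower, and 1 had an unadjusted p under 0.05 (PTGS1). One-way analysis of variance with a fold change over 2, after the methods, called PTGS2 with Pam3CSK4, PTGER2 with HEC and no member with CMC. Its p-value comes from 1 test over all 8 groups and is the same for every comparison, so only the fold change separates the treatments there. PTGS2 is one of the genes that the study selected on these same arrays as separating PICs from the other compounds, so its calls are not independent evidence of that separation. The study also measured PTGS2 by quantitative PCR and reported significant upregulation.

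PLA2G4A, which supplies the arachidonic acid, ran from 7.12 to 10.75 in GM with a median of 9.8. The TNF-a arrays 1 to 5 read 10.11, 10.34, 10.02, 10.88 and 10.75. Pam3CSK4 arrays ran from 10 to 10.36, MALP2 from 9.6 to 10.7, IMQ from 9.68 to 10.49 and N9 from 9 to 10.51, and these lay within the GM range, whereas 2 TNF-a arrays were above it. Every treatment mean was above that of GM, by 0.86 (95% interval 0.13 to 1.59, adjusted p = 0.459) with TNF-a and by 0.24 to 0.62 in the other 6 treatments. None passed the test (limma, adjusted p of 0.371 to 0.82). PLA2G4A was low in 3 GM runs (replicates 34 to 36, 37 to 39 and 49 to 51, described with the GM runs below). Leaving out low controls lowers every difference by itself, and without these runs the differences ran from -0.15 with N9 to 0.47 with TNF-a. Against GM replicates 1 to 9 alone, which hold none of these 3 runs, the difference with TNF-a was 0.85 and passed (adjusted p = 0.0369, limma). The other 6 differences there ran from 0.231 with N9 to 0.607 with Pam3CSK4 and did not pass.

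PTGS1 was called in no treatment against all GM arrays. GM ran from 8.44 to 10.97 with a median of 9.76, and the widest shift was with MALP2, where the 6 arrays lay between 10.22 and 10.57 and the difference was 0.60 (95% interval 0.11 to 1.09, adjusted p = 0.151). HEC and CMC arrays had medians of 10.02 and 9.93, with differences of 0.45 (adjusted p = 0.276) and 0.51 (adjusted p = 0.618). With N9 the difference was 0.01 (adjusted p = 0.989), although the 3 runs of N9 read 9.24, 10.69 and 9.49. The 4 probesets of PTGS1 gave no call in any treatment. Against GM replicates 1 to 9 alone, PTGS1 was lower with Pam3CSK4 (-0.84, adjusted p = 0.0181) and with N9 (-0.66, adjusted p = 0.0422, limma).

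PTGS2, the inducible cyclooxygenase, had the largest differences of the members. GM arrays ran from 7.52 to 13.24 with a median of 10.46 and a mean of 10.13 ± 1.38 (SD, n = 53). The 9 N9 arrays ran from 12.46 to 14.13 with a median of 13.25. All 9 were above the GM median and 5 were above every GM array. The difference was 3.16 ± 0.433 (SE), or 8.93-fold (adjusted p = 8.21e-09, limma).

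The 6 MALP2 arrays ran from 12.51 to 13.44 with a median of 13.18, above the GM median in all 6. The difference was 2.95 ± 0.518 (SE), or 7.73-fold (adjusted p = 1.49e-05, limma). The 6 Pam3CSK4 arrays ran from 11.03 to 12.31 with a median of 11.69, again above the GM median in all 6 but within the GM range. The difference was 1.54 ± 0.518 (SE), or 2.91-fold, and missed the threshold (adjusted p = 0.105, limma). With GM replicates 28 to 30 left out, the GM run with the highest PTGS2, it was 1.69 and passed (adjusted p = 0.038).

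For TNF-a and IMQ the runs differed. The TNF-a arrays 1 to 5 read 13.61, 13.79, 13.56, 10.63 and 10.41, so that replicates 1 to 3 were above every GM array and replicates 4 and 5 lay near the GM median. The difference was 2.27 ± 0.562 (SE), or 4.81-fold (adjusted p = 0.024, limma). It rested on the first run, since without replicates 1 to 3 it was 0.38 (adjusted p = 0.994), and without replicate 1, 2 or 3 alone the adjusted p was 0.24, 0.27 and 0.227. The IMQ arrays ran from 11.4 to 14.36 with run means of 14.21 for replicates 1 to 3 and 11.48 for replicates 4 to 6. The difference was 2.71 ± 0.518 (SE), or 6.53-fold (adjusted p = 4.71e-05, limma), and 1.34 without replicates 1 to 3 (adjusted p = 0.355).

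**Figure D2:**
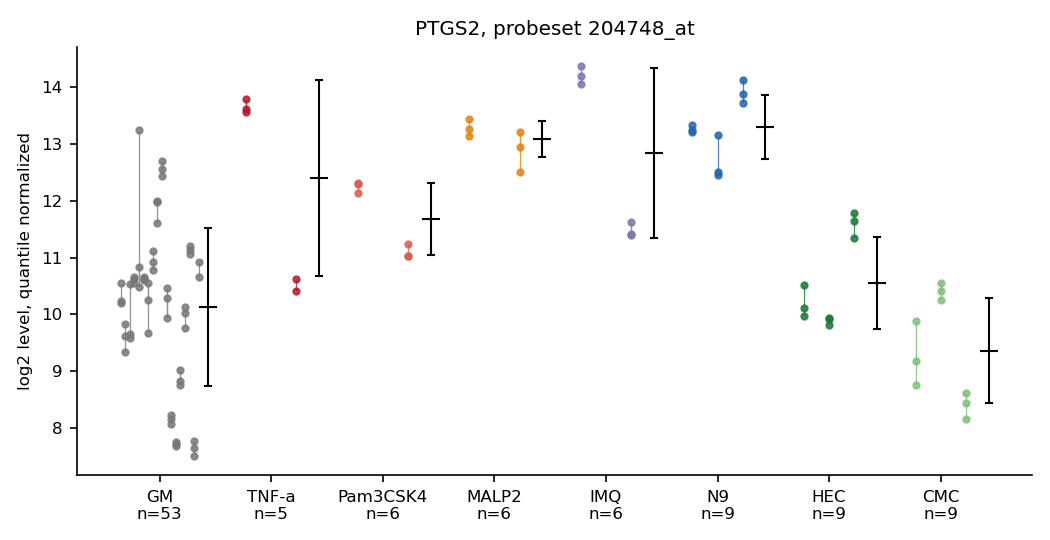
PTGS2 level (log2, y axis) on each array of the 8 groups. Points joined by a line are one run, and black marks are the group mean ± SD. N9 and MALP2 arrays lie at 12.46 or higher, TNF-a and IMQ split into a high and a lower run, and GM runs from 7.52 to 13.24.

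RNA quality and dependence between arrays were measured beside these calls. The log2 difference of the 3′ and 5′ ACTB control probesets, which rises as RNA degrades, was 0.95 ± 0.68 in IMQ (SD, n = 6) and 0.43 ± 0.28 in GM (SD, n = 53). With it as a covariate the PTGS2 difference with IMQ was 2.02 (adjusted p = 0.00814). With a random block for runs, PTGS2 kept its calls with N9, MALP2 and IMQ (adjusted p of 1.82e-07, 0.000147 and 0.000343) and lost the call with TNF-a (adjusted p = 0.147). The block applies 1 correlation, 0.438, to all probesets. GM run means of PTGS2 had an SD of 1.36 against a median SD of 0.18 within a run, so the block corrects too little for PTGS2. With the mean of each run as 1 replicate only the call with N9 was kept (difference 3.15, adjusted p = 0.0198, 3 runs against 18). The other PTGS2 probeset correlated at 0.981 with the brightest over 103 arrays and gave the same 4 calls. Without the 3 GM runs named above, all 4 calls were kept, with differences of 2.69 with N9, 2.48 with MALP2, 2.24 with IMQ and 1.80 with TNF-a.

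The cellulose ethers had PTGS2 levels around those of GM. HEC arrays ran from 9.81 to 11.79 with a median of 10.12 and a difference of 0.43 (adjusted p = 0.672). CMC arrays ran from 8.16 to 10.55 with a median of 9.19 and a difference of -0.77 (adjusted p = 0.719). Without the 3 GM runs named above these differences were -0.05 and -1.24. HEC and CMC shared dose and time and carry hydroxyethyl and carboxymethyl groups on cellulose, respectively. Over 8 members in this 1 pair none was called by limma, and 1 had an unadjusted p under 0.05 (PTGS2). Over all probesets 0% were called higher and 0% lower. PTGS2 also passed the analysis of variance with a fold change over 2, but that p-value covers all 8 groups and does not test this pair. The PTGS2 difference of HEC from CMC was 1.20, with an interval of 0.07 to 2.32 and an unadjusted p of 0.0372 (adjusted p = 0.68, limma), so a difference of that size is not excluded. In order of replicate number, the HEC runs read 10.2, 9.88 and 11.6 and the CMC runs 9.27, 10.41 and 8.4, so the runs overlapped. The other 7 members differed by -0.74 (PTGER2, interval -1.92 to 0.44) to 0.36 (PTGES, interval -0.28 to 0.99).

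The terminal synthases changed less. PTGES, the inducible microsomal synthase, ran from 9.76 to 12.33 in GM with a median of 11.32, and the 6 IMQ arrays lay between 11.66 and 12.21. The difference was 0.83 ± 0.292 (SE), or 1.78-fold, and fell just short of the threshold (adjusted p = 0.0501, limma). It passed without the 3 GM runs named above (0.90, adjusted p = 0.029), and with the ACTB difference as a covariate it was 0.38 (adjusted p = 0.56). The other PTGES probeset read 9.22 in IMQ and 9.04 in GM, a difference of 0.17 (adjusted p = 0.731). PTGES2, a second synthase, ran from 8.26 to 9.45 in GM and from 8.41 to 9.01 in IMQ, where 5 of 6 arrays were below the GM median. Its difference was -0.39 ± 0.113 (SE, adjusted p = 0.0134, limma), or 1.31-fold lower, with all IMQ arrays within the GM range. The call was lost when each run was a random block (adjusted p = 0.213), with the ACTB difference as a covariate (-0.28, adjusted p = 0.167) and without IMQ replicate 3 (adjusted p = 0.0702).

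HPGD, which inactivates prostaglandin E2, ran from 4.12 to 9.23 in GM with a median of 7.04. The Pam3CSK4 arrays ran from 7.44 to 8.64, above the GM median in all 6, and the difference was 0.91 (95% interval 0.12 to 1.69, adjusted p = 0.297). The other 6 differences ran from 0.06 with HEC to 0.59 with IMQ. The HPGD runs lay far apart within treatments, at 6.54 and 8.85 for IMQ and at 6.76 and 8.31 for TNF-a. The 4 probesets of HPGD correlated at 0.429 to 0.739 with each other, and none was called in any treatment against all GM arrays. HPGD passed with IMQ when the ACTB difference was a covariate (1.24, adjusted p = 0.0409) and without IMQ replicates 1 to 3 (1.75, adjusted p = 0.0338).

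The receptors moved in opposite directions with N9. PTGER4 ran from 7.76 to 11 in GM with a median of 9.07 and a mean of 9.09 ± 0.73 (SD, n = 53). The 9 N9 arrays ran from 9.34 to 12 with a median of 10.98, all above the GM median and 4 above every GM array. The difference was 1.74 ± 0.25 (SE), or 3.35-fold (adjusted p = 3.02e-08, limma). Its 3 runs read 9.70, 11.93 and 10.87. A random block for runs left the call in place (adjusted p = 4.32e-07), as did the mean of each run as 1 replicate (adjusted p = 0.0253). For PTGER4 too the block corrects too little, since its GM run means had an SD of 0.72 against a median SD of 0.11 within a run. A dimmer PTGER4 probeset was called too (difference 0.80, adjusted p = 0.000619), but its N9 runs read 3.90, 6.87 and 4.06 against a GM mean of 4.14, so that only replicates 4 to 6 were above it.

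No other treatment had a PTGER4 mean above that of all GM arrays. Run means were 9.7 to 10.76 in the 3 GM runs named above. In the runs of GM replicates 1 to 9 they were 8.71, 8.03 and 8.15. The means with IMQ (9.01), Pam3CSK4 (8.92) and CMC (8.78) were above all of the latter. Those with HEC (8.48), TNF-a (8.47) and MALP2 (8.29) lay between 8.15 and 8.71. None of these treatments was called against GM replicates 1 to 9 alone. TNF-a arrays 1 to 5 read 8.97, 8.65, 8.93, 7.91 and 7.87, and all were below the GM median. MALP2 arrays ran from 8.03 to 8.68 (difference -0.80, adjusted p = 0.0941), HEC arrays from 7.09 to 9.06 (difference -0.62, adjusted p = 0.204) and CMC arrays from 7.81 to 9.59 (difference -0.32, adjusted p = 0.802). Pam3CSK4 arrays ran from 8.58 to 9.21 and IMQ arrays from 8.4 to 9.72. MALP2 and HEC arrays were all below the GM median, though the groups overlapped.

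PTGER2 ran from 5.54 to 11.22 in GM with a median of 7.96 and a mean of 8.27 ± 1.37 (SD, n = 53). The N9 arrays ran from 3.09 to 7.05 with a median of 6.7, all below the GM median and 3 below every GM array. The difference was -2.43 ± 0.455 (SE, adjusted p = 1.93e-05, limma). The 3 N9 runs read 6.58, 4.04 and 6.90, and without replicates 4 to 6 the difference was -1.53 (adjusted p = 0.0307). The N9 mean of 5.84 was below 6, the level under which a probeset was counted as dim, so no fold is given, and with an offset of 16 on the signals the difference was -2.05 (adjusted p = 5.87e-05). GM runs also reached low values, with replicates 4 to 6 at 6 and replicates 7 to 9 at 6.52. Against GM replicates 1 to 9 alone the difference was -1.18 (adjusted p = 0.154, limma), and with the mean of each run as 1 replicate the adjusted p was 0.102. Without the 3 GM runs of high PTGER2 the difference was -1.92 (adjusted p = 3.21e-05). Those runs were chosen by PTGER2 itself, so leaving them out narrows the GM spread and this value is no check of the call.

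In the other treatments PTGER2 was not called. TNF-a arrays 1 to 5 read 7.87, 7.66, 7.21, 8.42 and 8.08. MALP2 arrays ran from 6.67 to 7.73, with all 6 below the GM median (difference -0.91, adjusted p = 0.4). HEC arrays ran from 4.67 to 8.57 (difference -1.01, adjusted p = 0.261), and the low values came from replicates 4 to 6, whose mean was 5.88. Replicates 4 to 6 were also the lowest run in GM (6) and N9 (4.04), but in no other treatment. Whether these runs shared a batch was not tested. CMC arrays ran from 4.93 to 9.6 (difference -0.27, adjusted p = 0.921), with run means of 5.89, 8.52 and 9.56.

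**Figure D3:**
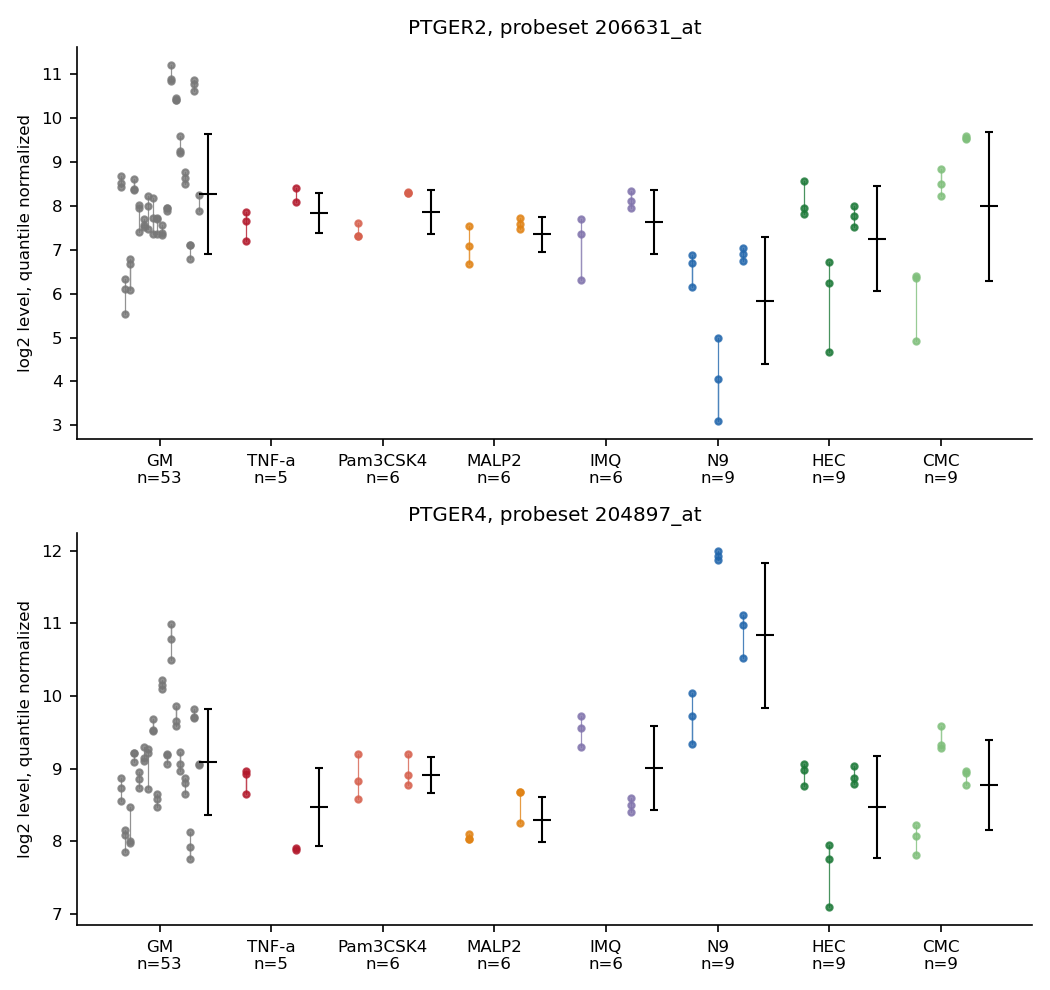
PTGER2 (top) and PTGER4 (bottom) levels (log2, y axis) on each array of the 8 groups. Points joined by a line are one run, and black marks are the group mean ± SD. With N9, PTGER2 runs from 3.09 to 7.05 and PTGER4 from 9.34 to 12, and both receptors vary between runs of GM, HEC and CMC.

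The PICs were then compared with each other for 8 members in 10 pairs, with p-values adjusted over all probesets within a pair. Doses differ between compounds, so the contrasts say only whether the groups differ beyond the spread of arrays. There were 5 calls. PTGER4 was higher with N9 than with TNF-a (by 2.37, adjusted p = 4.81e-06), Pam3CSK4 (by 1.92, adjusted p = 6.55e-05), MALP2 (by 2.54, adjusted p = 7.37e-08) and IMQ (by 1.82, adjusted p = 0.000178, limma). All probesets higher with N9 made up 3.31%, 5.02%, 6.12% and 5.19% in these pairs. PTGER2 was 2.02 higher with Pam3CSK4 than with N9 (adjusted p = 0.0328, limma), where 6.31% of probesets were lower with N9. Its differences of 2.01 from TNF-a, 1.79 from IMQ and 1.51 from MALP2 had adjusted p of 0.0614, 0.0662 and 0.124. With the mean of each run as 1 replicate none of the 5 calls was kept.

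The order of PTGS2 means was N9 (13.29), MALP2 (13.09), IMQ (12.84), TNF-a (12.4), Pam3CSK4 (11.67), HEC (10.56), GM (10.13) and CMC (9.36). No pair of PICs was called, and the widest gap, 1.62 between N9 and Pam3CSK4, had an adjusted p of 0.083. MALP2 and Pam3CSK4 are both lipopeptides that signal through TLR2 and were given at different doses. All 6 MALP2 arrays were above all 6 Pam3CSK4 arrays for PTGS2, with means of 13.09 and 11.67 (adjusted p = 0.664).

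Other genes of eicosanoid metabolism were read from a list of 47 genes, of which 41 had a probeset naming them alone. No gene of the list was called by limma with TNF-a, HEC or CMC, where 4, 7 and 3 had an unadjusted p under 0.05. With Pam3CSK4 and MALP2 1 gene was higher and 1 lower, with IMQ 4 were higher and 3 lower, and with N9 3 were lower. The median difference of the list was 0.31 with IMQ, where that of all probesets was 0.001, and between -0.09 and 0.15 in the other treatments. The shares of all probesets called in each treatment are those given with the member counts. Of these 14 calls, 9 were kept with the ACTB difference as a covariate, 5 with runs as a random block, 4 with all 105 arrays and 1 with the mean of each run as 1 replicate (CBR1 with IMQ).

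Only CYP4F11 and ALOX12B were called with a fold over 2, both with IMQ. CYP4F11, an omega-hydroxylase of eicosanoids and other fatty acids, read 8.09 ± 0.85 (SD, n = 6) with IMQ and 6.12 ± 1.14 (SD, n = 53) in GM (3.92-fold, adjusted p = 0.00479, limma). ALOX12B, an epidermal lipoxygenase, read 6 ± 1.98 (SD, n = 6) and 4.14 ± 1.63 (SD, n = 53) on a dim probeset (adjusted p = 0.045, limma). Neither call was kept when each run was a random block (adjusted p of 0.104 and 0.193) or with the ACTB covariate (adjusted p of 0.118 and 0.114). The following genes were singled out after their values were seen. CBR1, a carbonyl reductase that can convert prostaglandin E2 to F2α, was lower, with differences of -0.47 with Pam3CSK4, -0.78 with MALP2 and -0.84 with IMQ (adjusted p of 0.0143, 7.06e-07 and 3.51e-08). ANXA1, annexin A1, known as an inhibitor of phospholipase A2, was higher by 0.34, 0.55 and 0.45 in the same treatments (adjusted p of 0.0102, 5.27e-07 and 3.46e-05). With runs as a random block, both kept their calls with MALP2 and IMQ and lost those with Pam3CSK4 (adjusted p of 0.171 and 0.0903). ABCC4, a transporter that exports prostaglandins, was lower with N9 (difference -0.77, adjusted p = 2.67e-06), and kept the call with that block (adjusted p = 0.000153).

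GM runs spread widely for several members. Over the 18 GM runs, means of PTGS2 ran from 7.65 to 12.56, of PTGER2 from 6 to 10.98, of PLA2G4A from 7.14 to 10.7 and of HPGD from 5.57 to 9.11. The SD of PTGS2 run means was 1.36, whereas the median SD within a run was 0.18. PTGES2 was the steadiest member, with run means from 8.69 to 9.31.

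The 3 GM runs set apart had PLA2G4A at 8.25 or lower and PTGER2 at 10.42 or higher. The other 15 runs had PLA2G4A at 9.31 or higher and PTGER2 at 9.35 or lower. PTGS2 was 7.65 to 8.15 in these 3 runs and 8.87 to 12.56 in the others. Over all probesets, the deviations of the 3 runs from the GM run mean correlated with each other at 0.304 to 0.458, and with those of the other 15 runs at -0.263 to 0.252. Correlations among the other 15 runs were not computed, so these values do not show that the 3 runs form a set of their own.

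**Figure D4:**
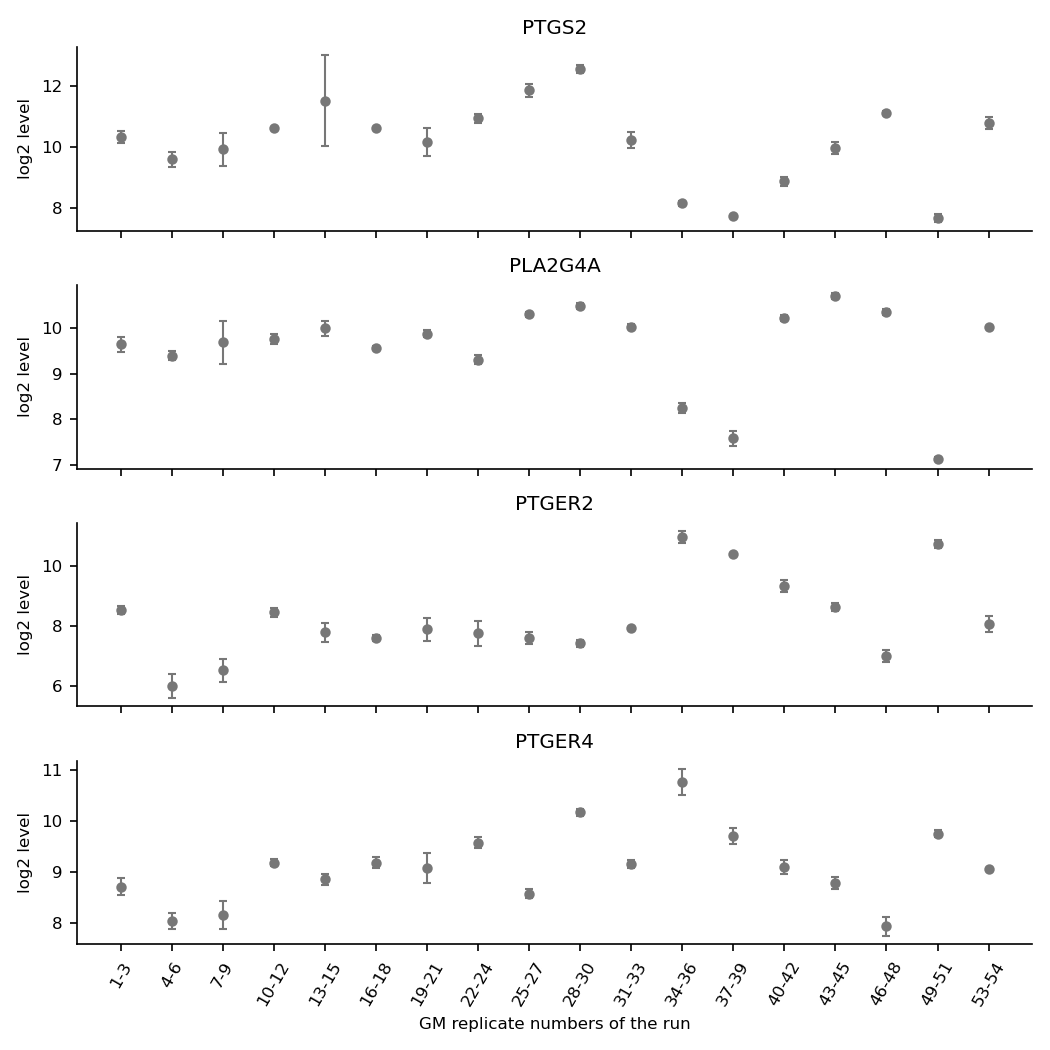
Mean level (log2, y axis) of PTGS2, PLA2G4A, PTGER2 and PTGER4 in each of the 18 GM runs, labelled by replicate numbers (x axis), with bars of ± SD within the run. In replicates 34 to 36, 37 to 39 and 49 to 51, PTGS2 and PLA2G4A are low and PTGER2 is high.

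With the 3 GM runs set apart, relations between members were read within the 15 other runs (28 pairs, permutation tests with 1e+05 draws, two-sided). PLA2G4A and HPGD rose together, with Pearson's r of 0.825 (p = 9e-05, adjusted p = 0.0021) and Spearman's rho of 0.807 (p = 0.00045, adjusted p = 0.0126). Without the 2 runs farthest from the PLA2G4A median r was 0.675. PTGS1 and PTGER4 ran opposite, with r of -0.825 (p = 0.00015, adjusted p = 0.0021), rho of -0.639 (p = 0.012, adjusted p = 0.168) and r of -0.722 without 2 runs. PTGS2 and PLA2G4A, which are neighbours on chromosome 1 with no protein-coding gene between them, had r of 0.266 (p = 0.339, adjusted p = 0.594) and rho of 0.239 (p = 0.391, adjusted p = 0.672). PTGS2 and PTGER2 had r of -0.201 (p = 0.474, adjusted p = 0.668) and rho of -0.261 (p = 0.347, adjusted p = 0.672). The 3 runs were set apart by a PTGER2 run mean above 10, so these relations cover the 15 runs and say nothing of all 18. In the 3 runs, PTGS2 and PLA2G4A were low and PTGER2 was high.

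The genes whose probesets followed PTGS2 most closely over 103 arrays, as a description with arrays of shared runs, were MAFF (r = 0.914), SOCS1 (r = 0.85), G0S2 (r = 0.848), MMP1 (r = 0.845) and ODC1 (r = 0.812). Over the 53 GM arrays they were FAM110C (r = 0.895), RTTN (r = 0.892), MAFF (r = 0.887), FOXD1 (r = 0.883) and FN1 (r = 0.861). MAFF was the gene on both lists.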

How the data were processed

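RNA of 105 Vk2/E6E7 samples was measured on single-channel arrays. The deposited log2 values have linear steps of 0.1, and per the labels the authors used MAS5 and GCOS 1.3, whereas the methods name RMA. Depth does not apply to arrays, whose number limits the precision. Members and lists were chosen with earlier results of these data known. Values of 103 arrays were quantile normalized (limma 3.58.1, R 4.3.3), 62 control probesets were left out and 54613 probesets were fitted with 1 mean per group (lmFit, eBayes, prior degrees of freedom 2.44). P-values were two-sided and Benjamini-Hochberg adjusted within a comparison, with calls at 0.05. Of the probesets, 41097 name 1 gene and 1801 several. The code was tested on simulated data. Named beside the members were list genes called with a fold over 2 (at most 3 a group), markers, controls and the 5 genes most like PTGS2. All 8 members had a promoter entry. Figures were drawn with matplotlib from Python. Alternatives covered the normalization, offset, dim probesets, arrays, controls, blocks, RNA quality, test and probeset.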

Additional observations from a re-analysis of the deposited data

How the results depend on the processing

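The calls of PTGS2 and PTGER4 with N9 were kept in every alternative run. Of 50 same-numbered pairs of a treated and a GM array 12 had a correlation over 0.1. These were replicates 1 to 6 of N9 (0.25 to 0.33) and of HEC (0.257 to 0.342), whereas replicates 7 to 9 of both were negative (-0.238 to -0.095). Among GM replicates 1 to 9, 5 of 50 arrays correlated best with their own number, so the numbers were not taken to pair single arrays. Of N9 and HEC replicates 1 to 6, all but replicate 6 of each correlated best with a GM array of the same set of 3 numbers. Whether those runs shared a batch with the GM runs of the same numbers was not tested. Shares of all probesets called were computed only for the fit described above, and not for its alternatives. The counts that follow therefore do not say whether members were called more often than other probesets. With the replicate number as a block and GM replicates 1 to 9 as controls, the member calls were 2 with TNF-a, 4 with Pam3CSK4, 3 with MALP2 and 5 with IMQ, those between PICs 10 and those of the list 57, and PTGS1 was called lower with Pam3CSK4 (-0.941) and, against its direction over all GM arrays, with N9 (-0.658) and IMQ (-0.696). That fit also gave calls of PLA2G4A with TNF-a, Pam3CSK4, MALP2 and IMQ (0.646 to 1.026) and of HPGD with Pam3CSK4, MALP2 and IMQ (1.023 to 1.418). It gave no call of PTGER2 with N9 (-1.181, adjusted p = 0.152, limma). With the same controls and no block the counts were 2 with TNF-a, 2 with Pam3CSK4, 8 between PICs and 43 in the list, with PTGS1 at -0.658 with N9 and -0.844 with Pam3CSK4. PLA2G4A with TNF-a was called without the block too (0.848, adjusted p = 0.0369, limma), and PTGER2 with N9 was again not called (-1.181, adjusted p = 0.154). For TNF-a, 0 members were called with runs as a random block, with only the 2 groups compared in the fit or with the mean of each run as 1 replicate, and for Pam3CSK4 1 was called with the ACTB covariate or the methods' analysis of variance with a fold change over 2. For MALP2, 2 were called with no quantile normalization and 0 with run means. For IMQ, 1 was called with all 105 arrays, with runs as a random block or with the analysis of variance, and 0 with run means. The analysis of variance, whose p-value covers all groups at once, gave 1 call with HEC, 1 for HEC against CMC and 11 between PICs. The count of 5 between PICs was 9 with array medians centred, 10 without dim probesets, 9 with only the 2 groups in the fit, 9 without the 3 GM runs set apart and 0 with run means. The 14 calls of the list were 4 with all 105 arrays, 5 with runs as a random block, 9 with the ACTB covariate and 1 with run means. Leaving out a replicate or a run gave 0 to 1 calls with TNF-a, 0 to 1 with Pam3CSK4, 1 to 2 with MALP2, 1 to 3 with IMQ, 3 with N9, 0 with HEC and CMC and between them, 4 to 8 between PICs and 10 to 18 in the list. The cause of these shifts was not tested. Run means, leaving out GM runs and leaving out the 3 GM runs together were chosen after seeing the data. Fits on run means have 2 to 3 runs in a treatment.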
